A study of Petunia x hybrida with 48 samples.

Results

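The neighbouring apical axillary buds of nodes 7 and 6 were compared within the third hydroponic experiment of a petunia branching study. The comparison was defined by the bud position in the labels and by no measured value. It took 12 of the 48 libraries of the series, 6 of bud 7 and 6 of bud 6, and the phosphate (P) treatment was carried as a covariate. The plants were *Petunia hybrida* of the inbred line V26. In the third experiment all plants began in low P medium (5 µM), and they were then moved into fresh low P or into high P medium (250 µM) for 24 h before the buds were cut. The 4 groups were therefore low P bud 6, low P bud 7, high P bud 6 and high P bud 7, with 3 libraries each, and all of them shared the low P start. The first experiment ran the other way: its plants began in high P (250 µM) and were moved into fresh high P or into low P (5 µM) for 24 h. Each library was a pool of buds from 6 to 7 plants, so a value is an average over plants. Too few plants were grown for each pool to have its own, so pools of different buds shared plants and were not all independent, and the sources used here do not say which. Buds are mixed tissue, and a lower value can come from fewer cells of a type or from less RNA per cell, which cannot be told apart in these libraries.

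An axillary bud forms in the angle between a leaf and the stem, and it holds a small shoot meristem with young leaves. It can rest, with low division and raised dormancy and abscisic acid (ABA) genes, or grow out into a branch, with active DNA copying, wall loosening and organ formation. In petunia the buds low on the main stem tend to rest and those higher up grow, and the study called buds 2 and 3 basal and buds 6 and 7 apical. The comparison of buds 7 and 6 asks whether neighbours on the growing side of that gradient still differ, and whether phosphate alters the difference.

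Values were the authors' normalized counts, summing to between 84940000 and 95610000 per library (median 89500000). Of 32830 gene models, 22584 averaged 10 or more across the experiment’s 24 libraries and were tested. Replicates within a group correlated at 0.982 to 0.989 across genes (median 0.985 over 12 pairs). Libraries of bud 6 and bud 7 at the same P level correlated at 0.972 to 0.992 (median 0.986 over 18 pairs). Neighbouring buds were thus as alike as replicates of 1 bud by this measure, which describes genes within libraries and carries no test.

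No gene was called different between bud 7 and bud 6. A call required more than a 2-fold difference and a Benjamini-Hochberg adjusted p below 0.05 in limma on log2(value + 1), and the share called was 0% of the 22584 genes. The lowest adjusted p was 0.0889, so no gene passed at any fold. At an unadjusted p below 0.05 there were 1612 genes (7.14%), of which 849 were lower in bud 7 (3.76%) and 763 were higher (3.38%). The count of calls stayed at 0 in each of the 12 runs without 1 library and with voom precision weights on approximate reads, and it was 2 when all 24 libraries of the experiment shared 1 estimate of the spread.

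The same 12 libraries did separate by phosphate. High P against low P, in the fit that also carried bud position, called 1739 genes (7.7%), 457 higher (2.02%) and 1282 lower (5.68%) in high P. The intervals of the bud difference were narrow for most genes. Its 95% interval lay inside a 2-fold change in either direction for 20140 genes (89.2%), and the median half-width was 0.23 on the log2 scale. Of the remaining genes, 274 had an estimate beyond 2-fold, 219 of them lower in bud 7 and 55 higher, but none passed the adjusted test.

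**Figure D1:**
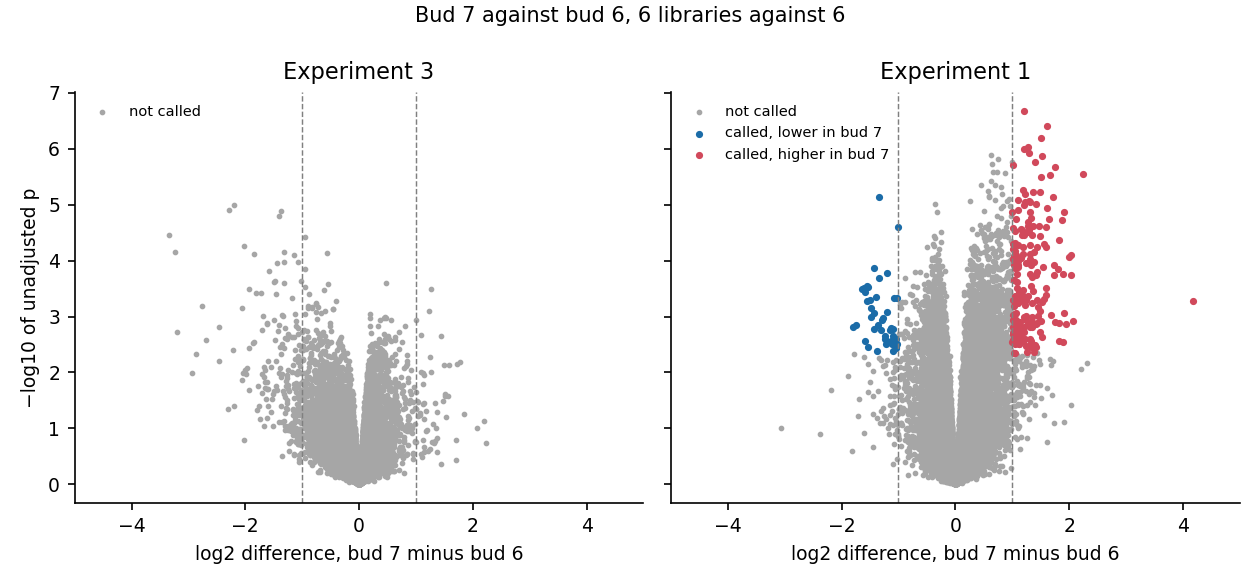
Each point is a gene, with the log2 difference between bud 7 and bud 6 on the x axis (bud 7 minus bud 6) and −log10 of the unadjusted limma p on the y axis, for experiment 3 (left) and experiment 1 (right), 6 libraries against 6 in each. Dashed lines mark 2-fold. Experiment 3 has 0 coloured (called) genes and a longer left side, and experiment 1 has 198 called higher and 43 called lower in bud 7.

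Principal components gave the same picture of the libraries. Component 1 held 48.3% of the variance and ran from low P to high P. The low P bud 6 libraries scored 68.3, 68 and 45.9 and the low P bud 7 libraries 31.7, 50.3 and 26. The high P bud 6 libraries scored −56.9, −50.4 and −32.2 and the high P bud 7 libraries −65.4, −41.3 and −44.1. Within low P, the scores of buds 6 and 7 overlapped in 1 library of each, and within high P they were interleaved. On component 2 (12% of the variance), low P bud 7 replicate 3 lay highest at 54.1 and low P bud 6 replicate 2 lowest at −35.7. An exact two-sided permutation of bud labels within each P level gave p = 0.115 for component 1 (bud 7 minus bud 6 −14.2). For component 2 (25.5) the same exact permutation gave p = 0.125. Both were 0.25 after adjustment over the 4 components tested, and the smallest p the 400 arrangements allow is 0.005.

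**Figure D2:**
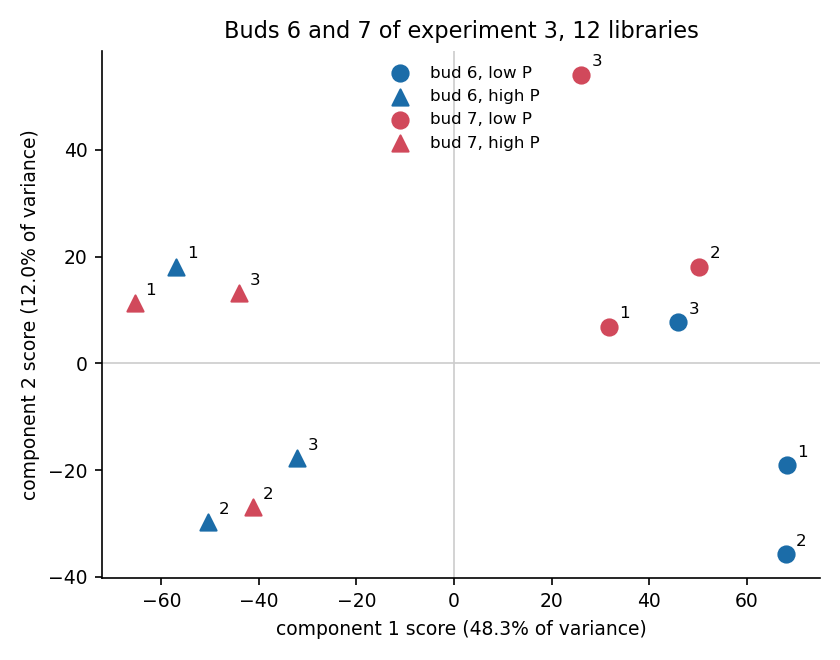
Scores of the 12 libraries on component 1 (x axis, 48.3% of variance) and component 2 (y axis, 12% of variance), without units, with colour for the bud, shape for the phosphate level and the replicate number beside each point. Low P libraries lie to the right and high P libraries to the left, and low P bud 7 replicate 3 is the highest point.

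The bud difference was then estimated within each P level. In low P, limma called 0 genes (0%), with 2041 at an unadjusted p below 0.05 (9.04%) and a lowest adjusted p of 0.405. In high P it called 0 (0%), with 334 (1.48%) and a lowest adjusted p of 1. The difference between the P levels in the bud difference was tested as an interaction, which also called 0 genes (0%), with 379 at an unadjusted p below 0.05 (1.68%). In high P the count was 451 with only the 6 libraries compared and 658 with replicate number as a block. The 4 groups shared 1 estimate of the spread, and without any difference a share of 0.05 of genes would have such a p on average. The shares in high P and for the interaction lay below that, so they are no evidence that the buds were alike in high P. With 0 genes called for the interaction, the larger unadjusted count in low P is no shown difference between the media. Low P bud 7 replicate 3, the library highest on component 2, also lay farthest from the bud 6 mean in several of the gene lists described next.

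The genes with the smallest p were chosen for description after their values were seen, since the naming rule requires a call. All those given here have a description, and a few at low levels were taken for their function. The lowest p belonged to *XTH32* (xyloglucan endotransglucosylase/hydrolase 32, Scf00892g00009.1), an enzyme that cuts and rejoins wall xyloglucan. Its normalized counts were 2799, 2822 and 1724 in low P bud 6 and 209, 815 and 487 in low P bud 7. In high P they were 687, 845 and 1217 in bud 6 and 170, 232 and 299 in bud 7. The 3 bud 7 libraries lay below all 3 bud 6 libraries at both P levels, as was so for 100 of the 22584 genes tested (0.443%). The log2 difference was −2.21 ± 0.3 (SE), a 4.62-fold lower level in bud 7 (limma, adjusted p = 0.0889). With the spread estimated from all 24 libraries, its adjusted p was 0.0241, and it was 1 of the 2 genes called there.

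Expansin B2 (Scf00271g00834.1), of the expansins that loosen cell walls, followed the same order. It had 3565, 5445 and 3510 normalized counts in low P bud 6 and 553, 1775 and 1369 in low P bud 7. In high P bud 6 it had 1308, 994 and 1943 and in high P bud 7 307, 233 and 132. Bud 7 was below bud 6 without overlap in both media, with a log2 difference of −2.28 ± 0.32 (limma, adjusted p = 0.0889). A UDP-glycosyltransferase (Scf00427g00031.1), of the family that attaches sugars to small molecules, was the other gene called with all 24 libraries (adjusted p = 0.0241). Its normalized counts were 439, 463 and 231 in low P bud 6 and 20.7, 59.9 and 5.35 in low P bud 7. In high P they were 73.3, 64.9 and 169 against 15.9, 13.4 and 26.6, bud 6 first. The groups overlapped in neither medium. In the 12 libraries its log2 difference was −3.24 ± 0.54, with an adjusted p of 0.152.

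A BURP domain-containing protein (Scf00799g00412.1), from a plant family of mostly secreted proteins, was among the most abundant of these transcripts. It stood at 148583, 107469 and 75313 normalized counts in low P bud 6 and at 31380, 48061 and 37308 in low P bud 7. In high P bud 6 it stood at 48715, 24860 and 46726 and in high P bud 7 at 22842, 18607 and 11488. Each bud 7 library was below each bud 6 library of its medium, by a log2 difference of −1.33 ± 0.23 (limma, adjusted p = 0.164). An O-methyltransferase (Scf00791g00421.1), of enzymes that methylate phenolics and other small molecules, had a log2 difference of −1.41 ± 0.2 (adjusted p = 0.0889). Its normalized counts were 374, 409 and 238 against 90.9, 112 and 177 in low P and 167, 127 and 199 against 56.8, 78 and 52.3 in high P, bud 6 first. Here too the groups did not overlap.

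The next 3 genes were likewise chosen after their values were seen. A pathogenesis-related thaumatin superfamily protein (Scf00714g10016.1), from a family induced by pathogens and drying, averaged 523 ± 267 normalized counts in low P bud 6 and 132 ± 28 in low P bud 7 (mean ± SD, n = 3). In high P it averaged 80.2 ± 26.9 and 32.2 ± 10.3, and its log2 difference was −1.58 ± 0.29 (limma, adjusted p = 0.204). Peroxidase 2 (Scf00192g00025.1), of the secreted peroxidases that cross-link walls, averaged 8333 ± 3330 against 3027 ± 850 in low P and 4792 ± 526 against 2169 ± 983 in high P. Chalcone synthase F (Scf00817g00216.1), the entry enzyme of flavonoid synthesis, averaged 53.6 ± 26.3 against 12.6 ± 4.7 in low P and 20 ± 10.5 against 5.7 ± 1.95 in high P. None of these 3 genes overlapped between the buds within a medium, and their adjusted p was 0.204, 0.257 and 0.287 in that order (limma).

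A dormancy gene and a transcription factor, both chosen after their values were seen, came next. Dormancy-associated protein-like 1 (Scf01100g00009.1), a relative of the pea and *Arabidopsis* marker of dormant buds, had 5078, 4276 and 2028 normalized counts in low P bud 6 and 1218, 1978 and 2014 in low P bud 7. In high P it had 1549, 1198 and 1211 in bud 6 and 925, 940 and 556 in bud 7. The groups did not overlap, although low P bud 6 replicate 3 lay next to the highest bud 7 library. Its log2 difference was −0.90 ± 0.23 (limma, adjusted p = 0.499). *NAC1* (NAC domain containing protein 1, Scf00232g01126.1), named for an *Arabidopsis* factor of the auxin response in roots, had 167, 101 and 45.3 against 18.9, 25.7 and 30.3 in low P. In high P it had 21.3, 35.2 and 41.6 in bud 6 against 6.81, 12.6 and 6.21 in bud 7. It did not overlap either, with a log2 difference of −1.84 ± 0.31 (limma, adjusted p = 0.152).

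On the higher side the differences were smaller and fewer. *XTH15* (Scf00807g00217.1), another xyloglucan enzyme, had 355, 349 and 266 normalized counts in low P bud 6 and 548, 1762 and 766 in low P bud 7. In high P it had 577, 511 and 334 in bud 6 and 982, 712 and 599 in bud 7. The bud 7 libraries were above the bud 6 libraries in both media, by a log2 difference of 1.09 ± 0.28 (limma, adjusted p = 0.499). Members of the *XTH* family thus lay on both sides. Oleosin 1 (Scf00304g00108.1), a coat protein of lipid bodies, had 40.6, 41.2 and 59.5 against 76.3, 125 and 92.2 in low P and 7.14, 4.46 and 11.8 against 30.4, 15.7 and 22.9 in high P. It was higher in bud 7 without overlap, by 1.26 ± 0.25 on the log2 scale (adjusted p = 0.282).

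**Figure D3:**
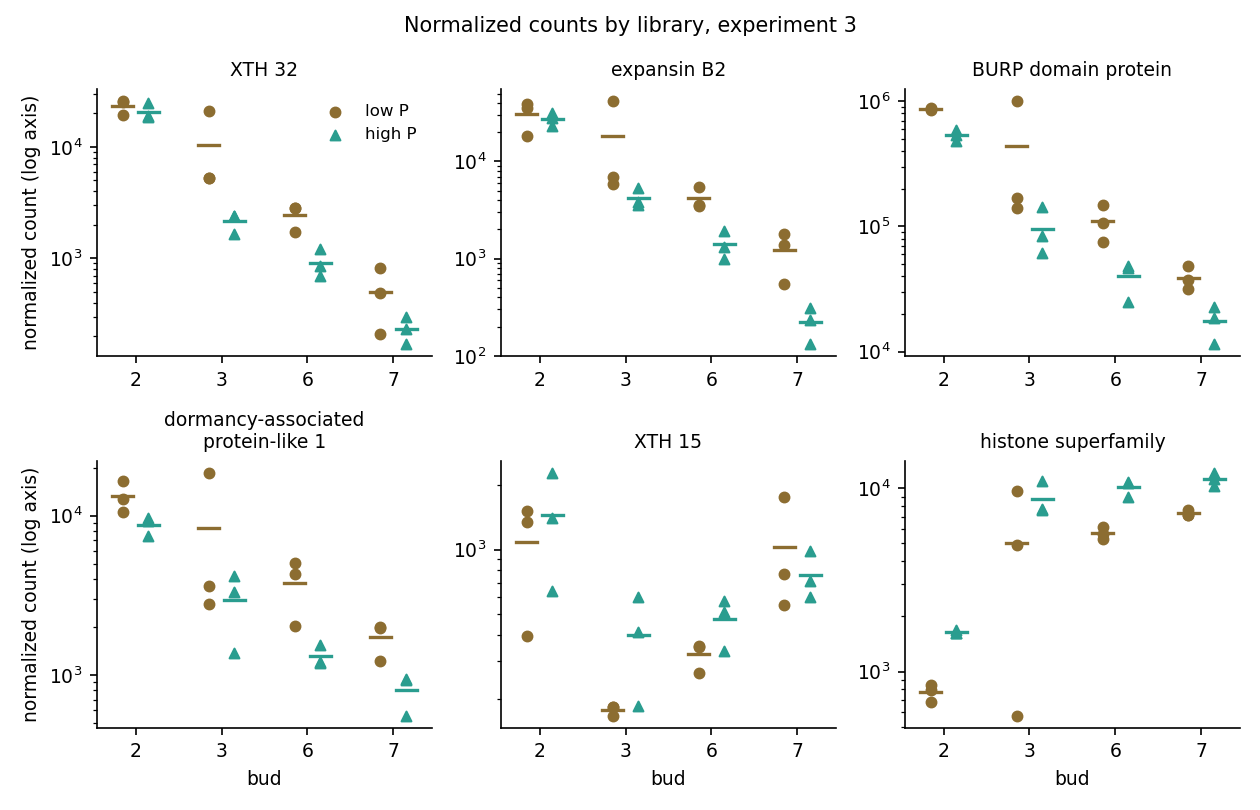
Normalized counts (log axis) of 6 genes in the 24 libraries of experiment 3, by bud (x axis) and phosphate level, with a point per library and a bar at each group mean (n = 3). *XTH32*, expansin B2, the BURP gene and dormancy-associated protein-like 1 descend from bud 2 to bud 7, *XTH15* has higher points in bud 7 than in bud 6, and the histone gene is lowest in bud 2. One low P bud 3 library lies with bud 2.

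Genes whose 3 bud 7 libraries lay wholly below or wholly above the 3 bud 6 libraries in both media were counted over the whole table. There were 100 lower (0.443%) and 81 higher (0.359%) of the 22584 genes. Some genes would be separate in this way by the order of libraries alone, and whether these shares exceed that was not tested. Genes chosen for a small p tend to be separate in the same libraries, so the lack of overlap in those described above adds no support.

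Gene groups were followed through 27 lists. A description was at hand for 3414 of the 32830 gene models, mostly genes reported as different between bud positions. The lists are thus no sample of the genome, and each is described by its counts and median beside all genes tested, whose median was 0 with 49.2% higher in bud 7. At an unadjusted p below 0.05, 3.38% of all genes were higher and 3.76% lower, and list counts at that p are given beside these shares. They are no matched background for lists drawn from genes that differ between bud positions. Of genes called lower in bud 3 than in bud 2 (described below), 15.1% were lower and 0.832% higher in bud 7 at that p. Of genes called higher in bud 3, 11.4% were higher and 0.538% lower. A list count above the shares of all genes can therefore reflect how the list was drawn. Histones package newly copied DNA. Of 43 tested, 42 were higher in bud 7 and 1 was lower, 30 were higher at an unadjusted p below 0.05 and 0 lower, against 3.38% and 3.76% of all genes. The median log2 difference was 0.21, with 0.28 in low P and 0.12 in high P. None passed the adjusted test (lowest adjusted p 0.505).

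The size of the histone difference depended on few libraries. Taking the bud 6 mean of each medium as 0, the list medians of the low P libraries were −0.15, −0.01 and 0.16 in bud 6 and 0.16, 0.22 and 0.48 in bud 7. In high P they were −0.07, 0.14 and −0.06 in bud 6 and 0.13, 0.14 and 0.08 in bud 7. All 6 bud 7 libraries lay above the bud 6 mean, but in both media the highest bud 6 library reached into the bud 7 range. Of the same-numbered pools in high P, which were read as paired, bud 7 was above bud 6 in 2 of 3 pairs and equal at this rounding in the other. The median was 0.15 without low P bud 7 replicate 3, and 14 members then had an unadjusted p below 0.05. That number was 11 without low P bud 6 replicate 1, 14 without low P bud 6 replicate 2 and 38 without high P bud 6 replicate 2.

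The most abundant histone illustrates the scale. Histone H2A 12 (Scf00406g00232.1) had 67871, 74345 and 90635 normalized counts in low P bud 6 and 86427, 91076 and 115170 in low P bud 7. In high P it had 116101, 135571 and 123174 in bud 6 and 130089, 135440 and 130745 in bud 7. The groups overlapped in both media, and its log2 difference was 0.21 ± 0.1 (limma, adjusted p = 0.718). A histone superfamily gene chosen for its small p (Scf00836g00036.1) had 5303, 6151 and 5626 against 7128, 7195 and 7585 in low P, without overlap. In high P it had 10811, 10667 and 8941 against 12159, 11236 and 10312, with overlap. Its log2 difference was 0.26 ± 0.07, a 1.19-fold higher level (adjusted p = 0.505).

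Genes of DNA copying and cell division moved the same way by less certain amounts. Of 90 tested, 84 were higher and 6 lower in bud 7, but 8 were higher and 1 lower at an unadjusted p below 0.05. The median was 0.19, with 0.31 in low P and 0.06 in high P, and it was 0.10 without low P bud 7 replicate 3. The 8 became 1 without that library, without low P bud 6 replicate 1 or without low P bud 6 replicate 2, 3 without high P bud 6 replicate 3 or high P bud 7 replicate 1, 5 without high P bud 6 replicate 1 and 27 without low P bud 6 replicate 3. DNA topoisomerase 2 (Scf00744g00349.1), which untangles copied chromosomes, had 22158, 18734 and 36122 normalized counts in low P bud 6 and 25385, 28158 and 48180 in low P bud 7. Replicate 3 was the highest pool in both, and the groups overlapped. In high P the topoisomerase had 41529, 45305 and 48560 against 49965, 44160 and 48300, again overlapping. The log2 difference was 0.24 ± 0.18 (limma, adjusted p = 0.773).

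Growth and meristem regulators were split, with 18 of 32 higher, 14 lower and a median of 0.06. Growth-regulating factor 5 (Scf00724g00713.1), which in *Arabidopsis* promotes cell division in leaves, averaged 1674 ± 184 in low P bud 6 and 2146 ± 211 in low P bud 7 (mean ± SD, n = 3). It averaged 2348 ± 175 and 2598 ± 367 in high P, and its log2 difference was 0.25 ± 0.09 (adjusted p = 0.659). *LBD4* (LOB domain-containing protein 4, Scf00559g00009.1), tied in *Arabidopsis* to the vascular cambium, lay the other way at 441 ± 66 against 309 ± 38.9 in low P and 311 ± 52.1 against 247 ± 44.8 in high P. Both genes were named after their values were seen.

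Most hormone lists had medians near 0. Auxin genes had 12 of 22 higher and a median of 0.07, ABA genes 10 of 17 higher and a median of 0.03, and ethylene genes 18 of 43 higher and a median of −0.04. At an unadjusted p below 0.05, 5 ethylene genes were lower and 1 higher, against 3.76% and 3.38% of all genes. The auxin list had 1 lower and 1 higher at that p, and the ABA list 0 in either direction. Of 7 cytokinin genes, 6 were lower in bud 7, with a median of −0.18 and 0 members at an unadjusted p below 0.05. The list holds genes of synthesis, response and breakdown, so its median has no single meaning for the hormone. Its median was −0.47 in low P and −0.02 in high P, and the ABA median was −0.15 and 0.15 in that order. Neither difference between media was tested. The cytokinin median was −0.10 without low P bud 7 replicate 3, −0.11 and −0.32 without high P bud 6 replicates 1 and 2, −0.29 without low P bud 7 replicate 1 and −0.08 after quantile normalization, and 1 member had such a p without replicate 2 of high P bud 7 or of low P bud 7. Cytokinin dehydrogenase 3 (Scf00498g00427.1), which breaks cytokinin down, had 374, 319 and 198 against 227, 269 and 96.4 in low P and 285, 469 and 387 against 186, 492 and 184 in high P. The groups overlapped, and the log2 difference was −0.60 ± 0.31 (limma, adjusted p = 0.727). The 20 jasmonate and wounding genes had a median of 0.03 and the 2 gibberellin genes 0.07.

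Dormancy and stress lists had negative medians. The 43 petunia homologs of *Arabidopsis* bud dormancy genes were picked by the study on libraries of this series as higher in bud 2, so their direction is not independent evidence. Of these, 36 were lower and 7 higher in bud 7, 5 were lower and 0 higher at an unadjusted p below 0.05, and the median was −0.20. The median was −0.39 in low P and 0.01 in high P, and that difference between media was not tested for the list. A dormancy/auxin associated family protein (Scf00037g01327.1) was an abundant member at 18057, 11989 and 8063 normalized counts in low P bud 6. Low P bud 7 had 10151, 7868 and 9392, inside that range, and the log2 difference was −0.26 ± 0.16 (limma, adjusted p = 0.74). The dormancy median was −0.08 without low P bud 6 replicate 1 and −0.13 without low P bud 7 replicate 1, and the 5 members became 8 without high P bud 7 replicate 3.

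Late embryogenesis abundant (LEA) proteins, which protect cells from drying, had 13 of 14 lower and a median of −0.44, with −0.88 in low P and 0.02 in high P. This list turned on single libraries. Its low P library medians were 0.50, 0.52 and −1.04 in bud 6 and −1.09, 0.01 and −1.45 in bud 7, and the overall median was −0.22 without low P bud 7 replicate 3 and −0.24 without low P bud 6 replicate 1. NAC factors had 11 of 14 lower and a median of −0.27, and WRKY factors 11 of 13 lower and a median of −0.19. Few members had an unadjusted p below 0.05: 1 LEA gene, 2 NAC factors and 1 WRKY factor were lower, and 0 were higher. The 2 NAC factors became 5 without high P bud 7 replicate 3. The NAC median was −0.52 in low P against −0.02 in high P, and the WRKY median −0.47 against −0.05. Neither difference between media was tested. The NAC median was −0.14 without low P bud 6 replicate 1, −0.46 without high P bud 6 replicate 3 and −0.44 without high P bud 7 replicate 3. The WRKY median was −0.36 without high P bud 6 replicate 1, −0.29 and −0.32 without high P bud 7 replicates 2 and 3, and −0.31 without low P bud 7 replicate 2. The 70 heat shock genes had a median of −0.12, which changed sign without any of 4 single libraries: 0.05 without low P bud 6 replicate 1 and 0.01 without low P bud 7 replicate 3, high P bud 6 replicate 3 or high P bud 7 replicate 1. It was −0.24 without low P bud 7 replicate 1. At an unadjusted p below 0.05, 2 heat shock genes were lower and 1 higher, no larger than the shares over all genes (3.76% and 3.38%). The 2 became 5 without low P bud 6 replicate 3, and the 1 became 6 without high P bud 7 replicate 2.

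The terpene and cytochrome P450 list had a median below the bud 6 mean in every bud 7 library. Among its 43 genes, 35 were lower and 8 higher in bud 7, and the median was −0.39. At an unadjusted p below 0.05, 10 were lower and 0 higher, against 3.76% and 3.38% of all genes. In low P the library medians were −0.60, −0.13 and −0.64 in bud 7, and in high P −0.38, −0.11 and −0.02, all below the bud 6 mean. Leaving out low P bud 6 replicate 1 gave −0.28. The 10 members became 5 in that run and without low P bud 7 replicate 3 or high P bud 6 replicate 3, and 6 without high P bud 7 replicate 1. A cytochrome P450 of the list (Scf00163g00115.1), chosen after its values were seen, had 209, 177 and 138 normalized counts in low P bud 6 and 16.2, 36 and 55.2 in low P bud 7. The low P groups did not overlap, but in high P it had 146, 124 and 225 against 48.8, 92.2 and 149, with overlap. Squalene synthase 1 (Scf00003g04242.1), the first enzyme committed to sterols, averaged 212 ± 62.7 against 78 ± 11.9 in low P and 123 ± 45.6 against 68 ± 27 in high P (mean ± SD, n = 3). It too was chosen after its values were seen, and its log2 difference was −1.13 ± 0.26 (limma, adjusted p = 0.398).

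Walls, transport and signalling followed with smaller medians. Lignin and vascular genes had 27 of 37 lower, 6 lower and 1 higher at an unadjusted p below 0.05, and a median of −0.19. Without low P bud 7 replicate 3 the median was −0.12, and the 6 became 3 in that run and without low P bud 6 replicate 1. Cinnamyl alcohol dehydrogenase 5 (Scf00016g02329.1), which makes the alcohols that form lignin, was the most abundant member. It had 9217, 8620 and 6961 normalized counts in low P bud 6 and 5945, 6076 and 3954 in low P bud 7, and 4993, 4256 and 4919 against 3215, 3790 and 4029 in high P. Bud 7 lay below bud 6 without overlap in both media, by −0.51 ± 0.12 on the log2 scale (limma, adjusted p = 0.45). Primary wall genes were mixed, with 26 of 46 higher, 7 lower and 2 higher at an unadjusted p below 0.05, and a median of 0.07, which was −0.08 without low P bud 7 replicate 2 and −0.05 without low P bud 6 replicate 2. The 2 higher became 5 without high P bud 6 replicate 1.

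Receptor kinase and defence genes had 70 of 98 lower, 18 lower and 2 higher at an unadjusted p below 0.05, and a median of −0.18. The 2 higher became 8 without low P bud 6 replicate 3 and 7 without high P bud 7 replicate 2. Nitrogen transport and assimilation genes had 31 of 41 lower, 8 lower and 1 higher, and a median of −0.16, which was −0.07 without low P bud 7 replicate 3. The 8 became 3 in that run, 4 without high P bud 6 replicate 3, and 5 without high P bud 6 replicate 1, high P bud 7 replicate 2 or low P bud 6 replicate 2. Peroxidase and glutathione genes had 40 of 61 lower, 10 lower and 0 higher, and a median of −0.11. Phosphate starvation genes had 25 of 41 higher and a median of 0.06. At that p 2 of them were lower and 0 higher, near the shares over all genes (3.76% lower and 3.38% higher). Over the 12 libraries the median of these same 41 genes between high and low P was −1.52. The sugar and carbon starvation list (42 genes) had a median of −0.05, the surface lipid list (33) −0.05, the flavonoid list (14) 0 and the cytosolic ribosome list (178) 0 with 89 on each side. Organelle ribosome genes had 30 of 41 lower, 0 at an unadjusted p below 0.05 in either direction, and a median of −0.13. Without high P bud 7 replicate 2 the median was −0.24 and 11 were lower at that p, without high P bud 6 replicate 1 it was −0.21 with 3, and without high P bud 7 replicate 3 it was −0.05.

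**Figure D4:**
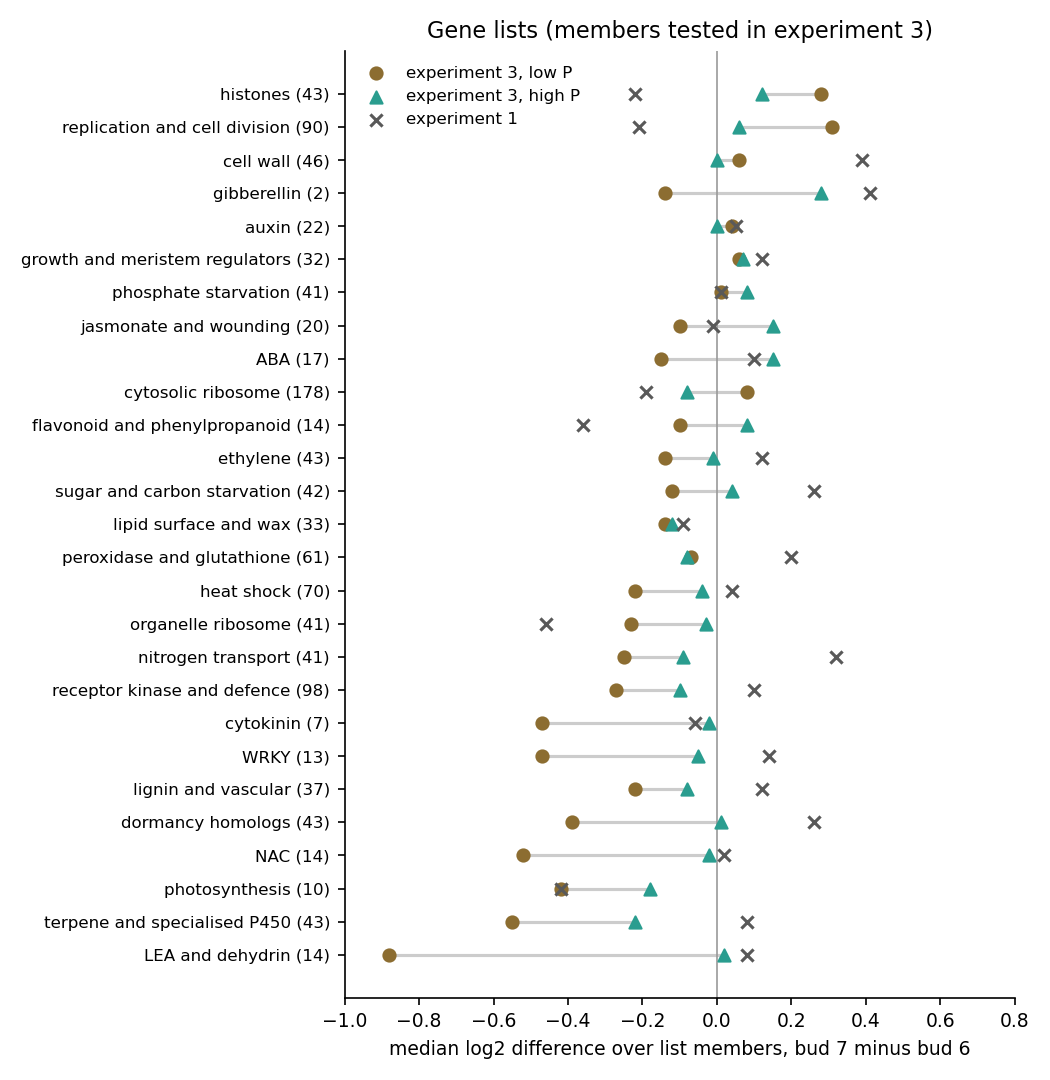
Median log2 difference between bud 7 and bud 6 over the members of each of 27 lists (x axis, bud 7 minus bud 6), for low P and high P in experiment 3 and for both P levels together in experiment 1, with the members tested in experiment 3 in parentheses. Histones and replication lie to the right in experiment 3 and to the left in experiment 1, and the low P point of the LEA list lies farthest left at −0.88.

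The tissue make-up of the pools was read from marker lists. All 10 photosynthesis genes, markers of green leaf tissue, were lower in bud 7, with a median of −0.31 and 0 at an unadjusted p below 0.05. Without high P bud 7 replicate 2 the median was −0.47 and 7 were lower at that p, and without high P bud 6 replicate 1 there were 2. Their summed level was 316000 to 328000 normalized counts in low P bud 6 and 228000 to 319000 in low P bud 7, and 211000 to 323000 against 206000 to 350000 in high P. The sums overlapped in both media. Lignin and vascular genes, markers of stem, summed to 41900 to 45700 in low P bud 6 and 33000 to 42600 in low P bud 7, and to 32200 to 35500 against 29500 to 33100 in high P, overlapping in both. Surface lipid genes, markers of epidermis, summed to 136000 to 186000 against 149000 to 203000 in low P and 129000 to 152000 against 102000 to 155000 in high P. At most 1 member of the stem or epidermis lists was at 0 in all libraries of a group, and no photosynthesis member was. Histone sums were 663000 to 819000 in low P bud 6 and 814000 to 1010000 in low P bud 7, and 1140000 to 1330000 against 1290000 to 1340000 in high P. The part of tissue proportions in the gene differences above was not tested.

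The basal neighbours gave a reference for the direction of the bud 7 difference. Bud 3 against bud 2 in the same experiment used 12 other libraries of the same table, in which pools may come from the same plants as those of buds 6 and 7. It called 5594 genes (24.8%), 2229 higher (9.87%) and 3365 lower (14.9%) in bud 3. Of the 3365 genes lower in bud 3, 2517 (74.8%) were also lower in bud 7 than in bud 6, with a median of −0.19. At an unadjusted p below 0.05, 508 of them were lower in bud 7 (15.1%) and 28 higher (0.832%), against 3.76% and 3.38% of all genes. Of the 2229 genes higher in bud 3, 1256 (56.3%) were higher in bud 7, with a median of 0.03, and 254 were higher (11.4%) and 12 lower (0.538%) at that p. The 16990 genes called in neither direction had a median of 0.01, with 53.2% higher and 46.8% lower in bud 7. The 56.3% of the genes higher in bud 3 was thus near the share of genes called in neither direction. At an unadjusted p below 0.05, 2.83% of the genes called in neither direction were higher in bud 7 and 1.94% lower.

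Read the other way, 508 of the 849 genes lower in bud 7 at an unadjusted p below 0.05 (59.8%) were called lower in bud 3, and 12 (1.41%) were called higher. Of the 763 genes higher in bud 7, 254 (33.3%) were called higher in bud 3 and 28 (3.67%) lower. The median of the genes lower in bud 3 was −0.25 in low P and −0.13 in high P, and 1 of 6 bud 7 libraries lay above the bud 6 mean for this set. Low P bud 3 replicate 3 had values like bud 2 (*XTH32* at 20894 against 5242 and 5264 in its fellow pools). Without it the basal comparison called 3986 lower (17.6%) and 3074 higher (13.6%), 7060 in all (31.3%), and 75% and 56.8% of these had the same sign in bud 7, with medians of −0.17 and 0.03. Leaving out low P bud 6 replicate 1 lowered the 508 genes to 341. Leaving out low P bud 6 replicate 1 or low P bud 7 replicate 3 lowered the 254 genes to 132 or 151, and the number was 167 without high P bud 7 replicate 1. The 12 genes that ran against the order became 114 without high P bud 6 replicate 1, 141 without high P bud 7 replicate 2 and 21 without low P bud 7 replicate 1, and the 28 became 59, 50 and 40 in the same runs and 53 without low P bud 6 replicate 1. *XTH15* and oleosin 1 ran against this order, lower in bud 3 than in bud 2 by −2.11 and −2.25 on the log2 scale (adjusted p = 0.0015 and 0.00245, limma) and with values above bud 6 in bud 7.

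**Figure D5:**
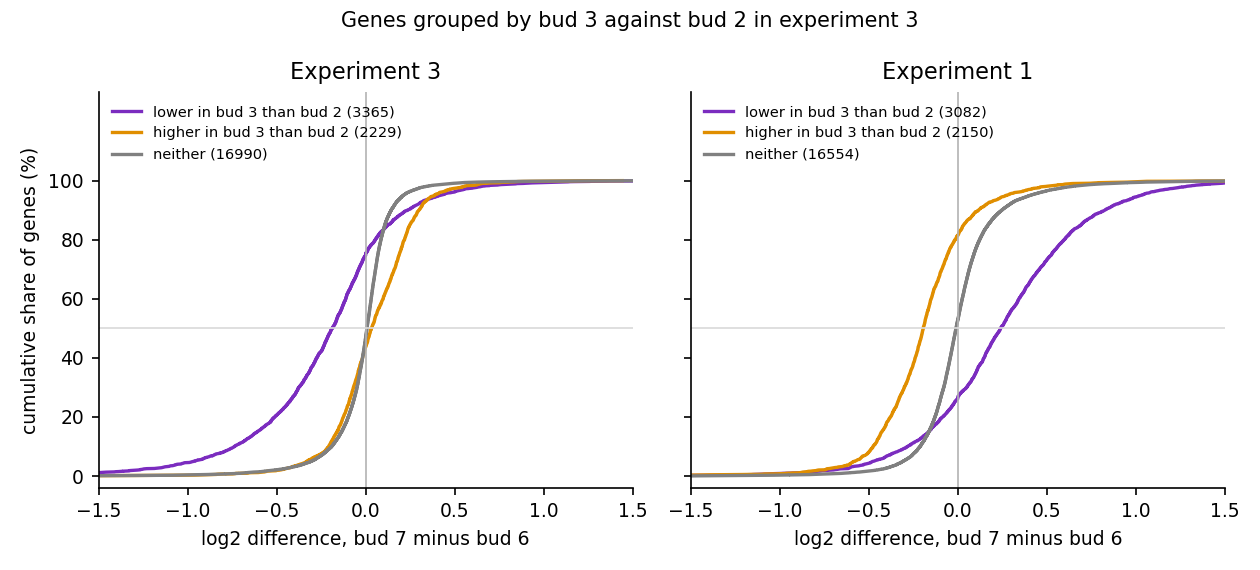
Cumulative share of genes (y axis, %) by log2 difference of bud 7 from bud 6 (x axis) in experiment 3 (left) and experiment 1 (right), for genes called lower, called higher or not called in bud 3 against bud 2 of experiment 3. At 0 the curve of genes lower in bud 3 lies above the others in experiment 3, where 74.8% are below 0, and below them in experiment 1, where 73.4% are above 0.

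The same positions in the first experiment, in other plants and in a table normalized on its own, gave a different list. There limma called 241 of 22363 genes (1.08%) between bud 7 and bud 6, 198 higher (0.885%) and 43 lower (0.192%) in bud 7, and 5937 (26.5%) had an unadjusted p below 0.05. The count of calls ranged from 109 to 308 without 1 library. It was 110 and 156 without high P bud 6 replicates 2 and 3, 119 and 140 without high P bud 7 replicates 2 and 3, 114 without low P bud 6 replicate 1 and 109 without low P bud 7 replicate 2. Of the 198 genes, 194 were tested in experiment 3, where 119 (61.3%) were higher in bud 7 with a median of 0.06, and 13 were higher and 4 lower at an unadjusted p below 0.05. The 13 became 28 without high P bud 6 replicate 1, and the 4 became 10 without high P bud 6 replicate 2. Their median was negative without high P bud 6 replicate 2, low P bud 6 replicate 2 or low P bud 7 replicate 2, at −0.07 in the lowest. Of the 43 genes lower in experiment 1, 35 were tested, 32 (91.4%) were lower in experiment 3 with a median of −0.43, and 8 were lower and 0 higher at that p, or 16 lower without high P bud 6 replicate 1 and 14 without high P bud 7 replicate 2.

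A description was at hand for 66 of the 198 genes called higher in experiment 1 and for 7 of the 43 called lower. Of these described genes, 2 had an unadjusted p below 0.05 in the same direction in experiment 3, both higher in bud 7. That is near the share over all genes (3.38% higher), so the 2 are described only and are no sign of recurrence. Oleosin 1 differed by 1.91 ± 0.27 on the log2 scale in experiment 1 (limma, adjusted p = 0.00542) and by 1.26 ± 0.25 in experiment 3. An unknown protein (Scf00132g00074.1) differed by 1.32 ± 0.22 (adjusted p = 0.00969) and by 1.44 ± 0.37. In experiment 3 it had 8428, 1940 and 3951 normalized counts in low P bud 6 and 14950, 16508 and 9620 in low P bud 7, and 4561, 1538 and 1971 against 7854, 5380 and 3584 in high P. It was separate in low P and overlapped in high P, where 1 bud 6 pool lay inside the bud 7 range. *XTH15* was at 0.95 ± 0.27 in experiment 1 (adjusted p = 0.0508), close to its 1.09 in experiment 3.

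Other groups had opposite signs in the 2 experiments. No test compared the experiments, and the sizes given beside each other are description only. The 43 histones, 42 of them higher in bud 7 in experiment 3, were all lower in bud 7 in experiment 1, with a median of −0.22. Of the 90 replication genes, 86 were lower in experiment 1, with a median of −0.21. The dormancy homologs had 37 of 42 higher there and a median of 0.26, and nitrogen transport genes 31 of 41 higher and a median of 0.32. The terpene and cytochrome P450 list, lower in every bud 7 library of experiment 3, had 23 of 42 higher in experiment 1. Its median there was 0.08, with 4 of 6 bud 7 libraries above the bud 6 mean. Peroxidase and glutathione genes had 41 of 59 higher there (median 0.20), and receptor kinase and defence genes 62 of 96 (median 0.10). Dormancy-associated protein-like 1 was at 0.65 ± 0.21 (limma, adjusted p = 0.0723) in experiment 1 and at −0.90 ± 0.23 in experiment 3. The 3082 genes lower in bud 3 of experiment 3 that were tested in experiment 1 had a median of 0.24 there, with 73.4% higher in bud 7 and 6 of 6 bud 7 libraries above the bud 6 mean. Photosynthesis and organelle ribosome genes, by contrast, were lower in bud 7 in both, with medians of −0.42 and −0.46 in experiment 1 and −0.31 and −0.13 in experiment 3.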

How the data were processed

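mRNA libraries of axillary buds were analysed from the normalized counts deposited by the authors. The authors used Trim Galore for trimming, Salmon on the *P. axillaris* gene models for quantification and DESeq2 to normalize each experiment on its own. The version of their processing pipeline differed between the experiments. The deposited signal values are normalized counts, and whether they are counts divided by 1 size factor per library was not established for experiment 1. A *P. hybrida* sample was thus read on a related genome, and near-identical copies may share reads. In the 12 libraries, 84.2 to 100% of values up to 20 reads were whole multiples of 1 read within 0.1, but in experiment 1 at most 37% were, so no count test was run. The cause of that difference between the experiments is not known. Totals per library were 84940000 to 95610000 (39730000 to 44920000 in experiment 1).

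Genes averaging 10 or more across a table’s 24 libraries were tested on log2(value + 1) in R 4.3.3 with limma 3.58.1 (trend), with P as an additive covariate, and called when the adjusted p was below 0.05 and the fold above 2, the thresholds of the study. Fold changes on this scale understate those of low genes. Within-P differences and the interaction came from 4 group means. Described genes and lists rest on descriptions in the study's supplementary tables, and the members and lists were chosen with earlier results of these data known. The naming rule took the 10 largest called genes in each direction with a mean of at least 100, plus at most 4 members of each list, called first and then by level; as 0 genes were called, genes of small p were named after their values were seen. P-values measure the spread between pools, and pools of different buds shared plants.

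The pools carry replicate numbers. The deviations of same-numbered bud 7 and bud 6 pools from their group means correlated at 0.353, 0.349 and 0.166 in high P, which counts as paired, and at 0.0879, 0.0286 and 0.252 in low P, which does not. The pairing was read from the data and is not stated in the labels. Alternatives were other thresholds, pseudocounts, filters, scalings, weights, a replicate block, all 24 libraries and leaving out each library. The voom fit, the list medians and counts under the alternatives and the basal comparison without low P bud 3 replicate 3 were chosen after seeing the data. The authors' tables of fold changes and p-values were not used.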

Additional observations from a re-analysis of the deposited data

Results flagged for a closer look

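The histone list had opposite signs in the experiments. In experiment 3 the median log2 difference of bud 7 from bud 6 was 0.21, and 6 of 6 bud 7 libraries lay above the bud 6 mean of their medium. In experiment 1 the median was −0.22, and 0 of 6 did. The difference between the experiments was not tested. The tables were normalized separately, and the plants differed in their starting medium and in growing period. The libraries also differed in sequencing read length, in depth and in the version of the authors' processing pipeline. These differences cannot be told apart.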

How the results depend on the processing

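The bud 7 comparison of experiment 3 gave 0 calls in 15 of 16 other settings and 0 in each of 12 runs without 1 library, with 711 to 2660 genes at an unadjusted p below 0.05. The settings with no fold threshold and with a 1.5-fold threshold reused the main fit, whose lowest adjusted p in limma was 0.0889. Their 0 calls were thus fixed in advance. With all 24 libraries in the fit the bud 7 comparison gave 2 calls, *XTH32* and the UDP-glycosyltransferase, and the low P comparison gave 1 (Scf00057g00144.1, a silicon transporter homolog listed at 0 in all low P bud 7 libraries). Runs without 1 library ranged from 0 to 1 calls in low P, in high P and for the interaction. The lone genes were Scf00890g00016.1 in low P without low P bud 6 replicate 3 (adjusted p = 0.0115), Scf33325g00001.1 in low P without low P bud 7 replicate 2 (adjusted p = 5.97e-05 in limma, and 0.000682 for the interaction) and Scf00057g01912.1 in high P without high P bud 6 replicate 3 (adjusted p = 0.0302). Their log2 differences in those runs were −4.76, −6.52 (6.78 for the interaction) and 3.95. All had low levels, under the minimum of 100 for a named gene. Over all pools of a bud they averaged 8.93, 70.6 and 10.9 normalized counts in bud 6 and 0.131, 33.2 and 18.6 in bud 7. Each call hung on leaving out 1 library. A voom fit on approximate reads, chosen after seeing the data, gave 0 calls and 1635 genes at an unadjusted p below 0.05.

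The replicate block gave 0 calls for both P levels together (2660 genes at an unadjusted p below 0.05, against 1612), 0 in low P (3698), 0 in high P (658) and 0 for the interaction (1246), 261 in experiment 1 and 5559 for bud 3 against bud 2, so it changed no call count by over 1.5 times. Experiment 1 gave 2008 calls with no fold threshold, 131 with a pseudocount of 10, and 109 to 308 without 1 library. Bud 3 against bud 2 gave 15062 with no fold threshold and 4736 to 7060 without 1 library. Quantile normalization changed the split of higher and lower calls to 138 and 58 in experiment 1 and to 2774 and 2834 for bud 3 against bud 2. The scalings moved the median of all genes by at most 0.02. Component tests on the 1000 most variable genes kept their direction. Component 2 then had p = 0.035 in the exact permutation (0.125 with all genes) and 0.14 after adjustment over 4 components, and the other adjusted p were 0.153 or more. The genes described and the medians of histones, replication, dormancy, LEA, NAC, WRKY, photosynthesis and P450 lists kept their sign in all 26 alternatives, whereas those of ABA, gibberellin, jasmonate, phosphate starvation, sugar, cell wall, heat shock and surface lipid genes did not. Genes averaging under 10 were not tested.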
